A study of Mus musculus with 4 samples.

Results

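The 10 genes described here belong to the fibroblast growth factor (FGF) receptor pathway: the receptors Fgfr1 and Fgfr2, the transcription factors Etv4 and Etv5, and the feedback inhibitors Spry1, Spry2, Spry4, Spred1, Spred2 and Dusp6. They were taken by name from the 31053 gene features of the count matrices, and all 10 were found in both matrices. Nuclear RNA and open chromatin had been counted in the same nuclei (10x multiome) of green alveolar type 2 (AT2) cells, which make surfactant, sorted from lungs of male mice given bleomycin 8 days earlier to damage the alveolar lining. Every mouse carried SftpcCreERT2, a tamoxifen-inducible Cre recombinase driven by the surfactant protein C gene, and Rosa26mTmG, a membrane reporter that turns green after recombination. The control had no further allele, and the CKO also carried IPF/F, loxP-flanked alleles of IP (gene Ptgir), the prostaglandin I2 receptor. Each genotype gave 1 joint library, whose RNA and chromatin make up its 2 samples (4 in all), and the sources used here do not give the age, the strain or the number of mice behind a library. No difference between the libraries therefore has a replicate check, none was tested, and the intervals given are 95% intervals that cover counting error only.

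FGFs made by mesenchymal cells bind receptor tyrosine kinases on the alveolar epithelium, and Fgfr2 is known as the receptor for Fgf7 and Fgf10 on AT2 cells and on the epithelial tips of the embryonic lung. The receptors act through adaptors and RAS on the ERK kinases, which raise transcription of the ETS factors Etv4 and Etv5. They also raise transcription of inhibitors that act back on the cascade: Sprouty (Spry) proteins on receptor signalling to RAS, Spred proteins on RAS through neurofibromin and on RAF, and the phosphatase Dusp6 on ERK itself.

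The depth was 48378328 UMIs (RNA molecules) over 13569 barcodes in the control and 30818808 over 10925 in the library labelled CKO. Filters kept 2182 and 3881 nuclei, with a median of 2092.5 and 2401 UMIs, and 8407 and 4365 barcodes were at or over the mitochondrial limit of 20%. Of all barcodes, 193 sequences occurred in both libraries, 17 of them among kept nuclei. Clusters were named from marker genes. The libraries differed in makeup: 2058 control nuclei (94.3% of those kept) and 2309 nuclei of the library labelled CKO (59.5%) were alveolar, and leukocyte-like nuclei numbered 103 and 1332. The alveolar nuclei comprised 1600 and 1235 AT2-like, 374 and 850 transitional-like and 84 and 224 AT1-like nuclei, transitional cells being the Krt8-high state between AT2 and alveolar type 1 (AT1) cells. The AT2-like class was not made of the same clusters in both libraries, since cluster 0 comprised 121 nuclei of the control and 1149 of the library labelled CKO, cluster 2 comprised 776 and 15, and cluster 3 comprised 703 and 71. Ptgir did not check the CKO label, with 0 UMIs in control alveolar nuclei and 1 in those of the library labelled CKO.

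RNA of other cells was present in the alveolar nuclei. Levels are given as CPM, the UMIs of a gene summed over the nuclei of a class and scaled to the class's total UMIs of nuclear-encoded genes. The summed level of 13 macrophage and monocyte markers there was 58.5 CPM in the control and 125 CPM in the library labelled CKO, with Ccr2 and Fcgr1 at 0 in the control. That of 9 neutrophil markers was 63.3 and 174 CPM, with S100a8, S100a9 and Retnlg at 0 in the control, and that of 12 fibroblast markers 206 and 371 CPM, with Lum, Tcf21 and Gli1 at 0 in the control and Tcf21 also in the other library. For 13 T and NK cell markers it was 120 and 239 CPM, with Cd3e, Cd3g, Cd3d and Cd8a at 0 in the control, for 9 B cell markers 14.9 and 23.7 CPM, and for 9 endothelial markers 27.7 and 33.3 CPM. RNA of AT2 cells was in turn present in leukocyte-like nuclei, which should lack it. The leukocyte level of the surfactant gene Sftpc was 71.2% of the alveolar level in the control and 45.4% in the library labelled CKO, and for Sftpb it was 82.4% and 55.8%. The leukocyte level is therefore given beside members' levels in what follows, though not beside every value. It is not a pure background, since leukocytes may express a member themselves. In the control even Sftpc did not exceed it beyond counting error (log2 ratio 0.49, -0.17 to 1.23), so a level not above it does not show that a class lacks the RNA. The alveolar level exceeded the leukocyte level beyond counting error for 2 members in the control (Fgfr2 and Etv5). It did so for 6 in the library labelled CKO (these and Spry1, Spry2, Spred1 and Spred2). The same held for 9.18% of all genes with at least 20 UMIs in the control and for 21.4% in the library labelled CKO. The control had few leukocyte-like nuclei, and its intervals are wide.

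Fgfr2, the epithelial FGF receptor, was highest in AT2-like nuclei, at 724 CPM (interval 700 to 749) in the control and 761 CPM (732 to 791) in the library labelled CKO. AT1-like nuclei had 420 CPM (345 to 506) and 376 CPM (333 to 423), and transitional-like nuclei 398 CPM (363 to 436) and 440 CPM (415 to 467). Of the AT2-like nuclei, 1038 of 1600 and 906 of 1235 held an Fgfr2 UMI. After each nucleus was thinned to 1000 UMIs the share was 47.6% (590 of 1239 nuclei deep enough) and 47.3% (529 of 1118). In leukocyte-like nuclei the thinned share was 22.1% and 26.1%, and the level was 466 CPM (395 to 545) and 312 CPM (292 to 332). The transitional-like and AT1-like levels of the control library therefore did not exceed the leukocyte level, whereas both did in the library labelled CKO. Among the other classes of that library with at least 50 nuclei, Fgfr2 ranged from 248 CPM in B-like nuclei to 376 CPM in dendritic-like nuclei, and neighbours in that order had overlapping intervals.

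Fgfr1, the receptor known from mesenchymal cells, was low in alveolar nuclei, with 43 UMIs in each library, or 7.14 CPM (5.17 to 9.62) in the control and 6.49 CPM (4.70 to 8.74) in the library labelled CKO. Its highest level was in the fibroblast- and mural-like nuclei of the library labelled CKO, 164 CPM (119 to 221), from 43 UMIs in 25 of 56 nuclei. Dendritic-like nuclei followed with 98.9 CPM (64.0 to 146), an interval that overlaps the fibroblast one. Within them, cluster 11, with Flt3 at 422 CPM, had Fgfr1 at 143 CPM (89.5 to 216) in 13 of 54 nuclei. Cluster 13, with Siglech, a plasmacytoid dendritic cell gene, at 1357 CPM, had 30.4 CPM from 3 UMIs. Endothelial-like nuclei had 37.7 CPM (18.8 to 67.4), and neutrophil-, macrophage- and T- and NK-like nuclei lay between 4.63 and 7.99 CPM, as low as alveolar nuclei. In the control library these non-alveolar classes, T- and NK-like nuclei apart, had under 50 nuclei and were not compared.

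**Figure D1:**
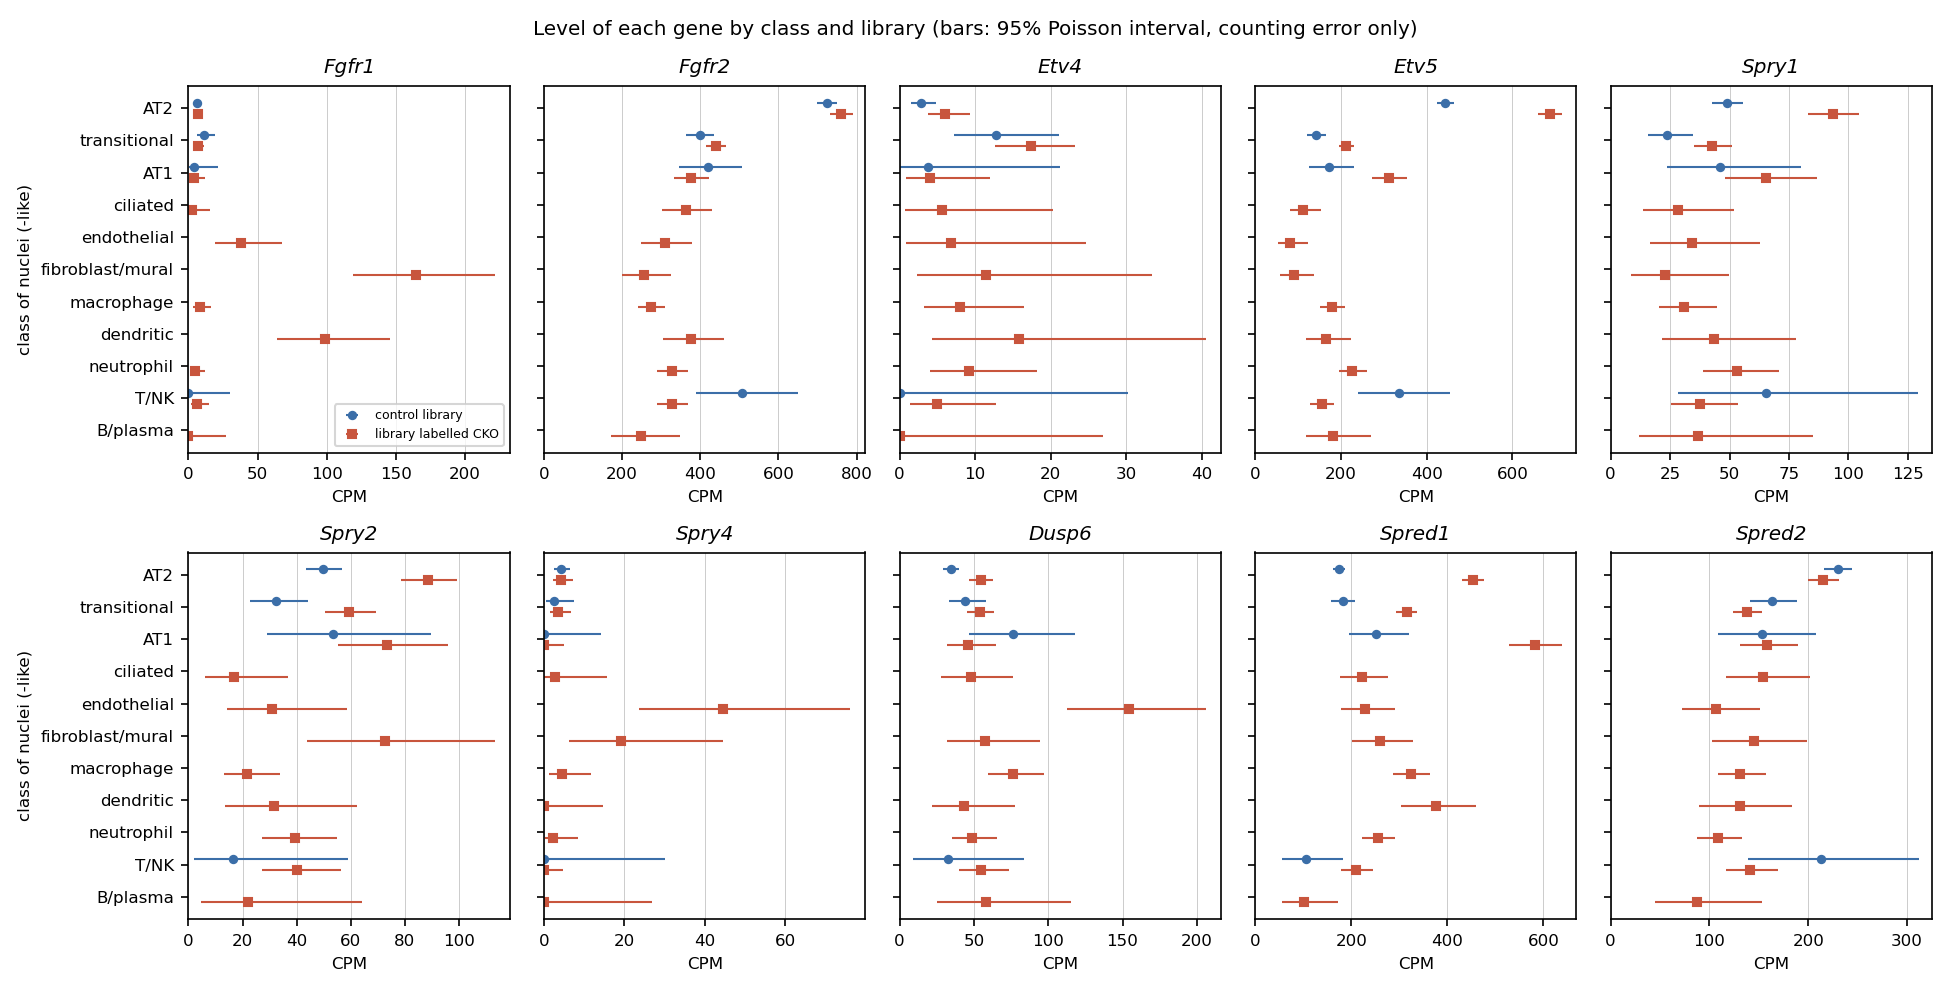
Level of each of the 10 genes in CPM (linear axis, one scale per gene) by class of nuclei, with the control as blue circles, the library labelled CKO as red squares and exact Poisson 95% intervals as bars. Fgfr2 and Etv5 are highest in AT2-like nuclei of both libraries, and Fgfr1 is highest in fibroblast- and mural-like nuclei.

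Etv5, an ETS factor that AT2 cells depend on, followed Fgfr2 in having its highest level in AT2-like nuclei. The level there was 444 CPM (425 to 464) in the control and 687 CPM (659 to 716) in the library labelled CKO. AT1-like nuclei had 172 CPM (125 to 230) and 312 CPM (273 to 355), and transitional-like nuclei 141 CPM (121 to 165) and 213 CPM (195 to 231). Leukocyte-like nuclei had 256 CPM (204 to 316) and 186 CPM (170 to 202). The transitional-like level was thus under the leukocyte level in the control and a little above it in the library labelled CKO. The AT1-like level of the control was also under the leukocyte estimate, with overlapping intervals. That of the library labelled CKO was above it. The lowest levels in the latter were in endothelial-like nuclei, 82.2 CPM (52.7 to 122), and in fibroblast- and mural-like nuclei, 91.7 CPM (58.7 to 136). Thinned to 1000 UMIs, 32.9% and 46.6% of AT2-like nuclei held an Etv5 UMI, against 11.2% and 16.0% of transitional-like nuclei and 13.2% and 12.3% of leukocyte-like nuclei. Unthinned, 783 of 1600 and 850 of 1235 AT2-like nuclei held one.

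Etv4, the closely related ETS factor, had the reverse order of AT2-like and transitional-like nuclei, at a small fraction of the counts. In the control library it had 13 UMIs in AT2-like nuclei (2.84 CPM, 1.51 to 4.85) and 15 in transitional-like nuclei (12.8 CPM, 7.15 to 21.1). In the library labelled CKO it had 20 UMIs (6.06 CPM, 3.70 to 9.36) and 45 UMIs (17.4 CPM, 12.7 to 23.2). The transitional-like intervals lie above the AT2-like ones in each library. AT1-like nuclei had 1 UMI in the control (3.82 CPM) and 3 in the library labelled CKO (4.09 CPM). Leukocyte-like nuclei had no UMI in the control library, where the exact upper limit is 11.1 CPM, and 7.85 CPM (4.98 to 11.8) in the library labelled CKO. Dendritic-like nuclei of the latter had 15.8 CPM (4.31 to 40.5) from 4 UMIs, an interval that holds the transitional-like level.

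The ratio of transitional-like over AT2-like nuclei within each library sets these patterns side by side, as a log2 ratio with an exact conditional binomial interval. Clusters were built from variable genes that included none of the members. The median over genes with at least 100 UMIs was 0.24 in the control and 0.18 in the library labelled CKO. Etv5 was lower in transitional-like nuclei by a log2 ratio of -1.65 (-1.89 to -1.42) in the control and -1.69 (-1.83 to -1.56) in the library labelled CKO. Etv4 was higher, at 2.17 (1.00 to 3.36) and 1.52 (0.73 to 2.36). Fgfr2 stood at -0.86 (-1.0 to -0.72) and -0.79 (-0.89 to -0.69). The 2 ETS factors thus differed in direction in both libraries. Over 8 settings of the filters and the clustering, Etv4 ranged from 2.00 to 2.58 and from 1.28 to 1.95, and Etv5 from -1.71 to -1.25 and from -1.93 to -1.64. The 8 settings include the reported setting and another that gave the same clusters.

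Of the feedback inhibitors, Spry1 followed Etv5, with 48.9 CPM in AT2-like and 23.8 CPM in transitional-like nuclei of the control library (log2 ratio -1.04, -1.66 to -0.46) and 93.3 and 42.4 CPM in the library labelled CKO (-1.14, -1.46 to -0.82). In leukocyte-like nuclei Spry1 stood at 57.1 CPM (34.4 to 89.2) in the control and 40.6 CPM (33.6 to 48.6) in the library labelled CKO. Both control levels were under the leukocyte estimate, which rests on 19 UMIs and whose interval holds the AT2-like level. The part of RNA of other cells in the control ratio was not tested. In the library labelled CKO the transitional-like level did not exceed the leukocyte level beyond counting error. Spry2 stood at -0.62 (-1.16 to -0.12) and -0.57 (-0.87 to -0.29), and Spred2 at -0.49 (-0.72 to -0.27) and -0.64 (-0.83 to -0.46). In leukocyte-like nuclei Spry2 stood at 27.1 CPM (12.4 to 51.4) in the control and 32.8 CPM in the library labelled CKO. The control interval, from 9 UMIs, holds both its AT2-like and its transitional-like level, 49.7 and 32.4 CPM. As for Spry1, the control levels of Spred2, 230 and 163 CPM, were under its leukocyte level of 237 CPM. Spred1 showed no such difference in the control library, at 0.06 (-0.16 to 0.28), and was lower in transitional-like nuclei of the library labelled CKO, at -0.52 (-0.65 to -0.40). Dusp6, the ERK phosphatase, differed by less than counting error in both libraries, at 0.36 (-0.12 to 0.82) and -0.01 (-0.34 to 0.31). Fgfr1 and Spry4 had too few UMIs to order the classes. The intervals lay below 0 in both libraries for 5 members (Fgfr2, Etv5, Spry1, Spry2 and Spred2) and above 0 in both for Etv4 alone. Of the 10729 genes with at least 20 UMIs in each library, 8.06% had intervals below 0 in both and 22.8% above 0 in both. Past 2-fold in both libraries were Etv5 and Spry1 on the lower side and Etv4 on the higher side. The share of all genes past 2-fold in both libraries was not counted. Within single libraries, over genes with at least 20 UMIs in the classes compared, 7.41% were 2-fold lower and 18.2% higher in the control. In the library labelled CKO these shares were 3.97% and 14.6%.

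**Figure D2:**
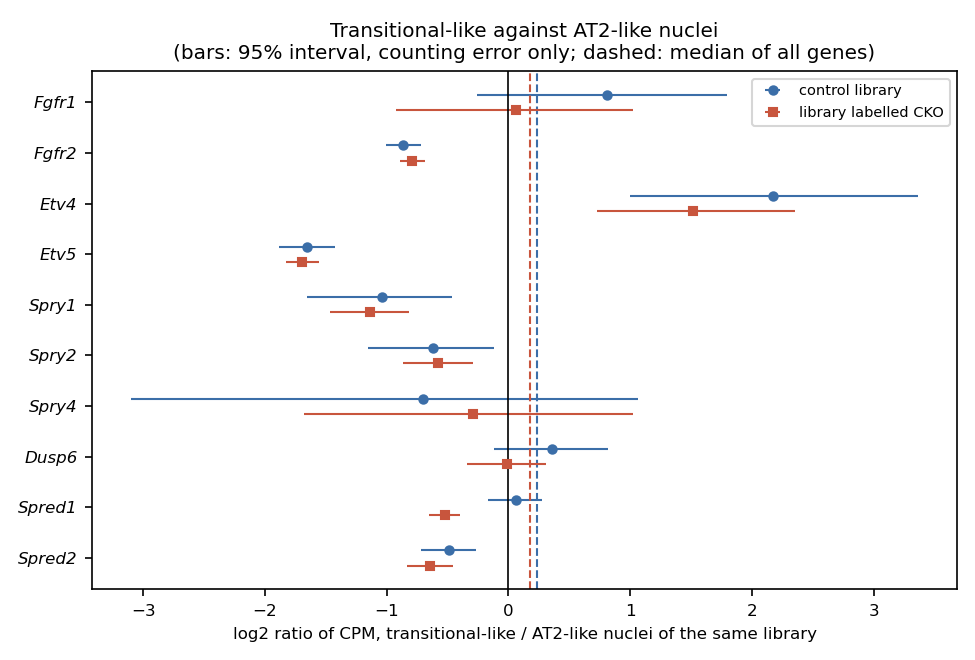
For each gene, the log2 ratio of CPM of transitional-like over AT2-like nuclei, in the control (blue circles) and the library labelled CKO (red squares), with exact 95% intervals as bars, the line at 0 for equal levels and the median over genes drawn for each library. Etv4 lies above 0 and Fgfr2, Etv5, Spry1, Spry2 and Spred2 lie below 0 in both libraries.

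In AT1-like nuclei the members again fell apart by gene. Fgfr2 was lower than in AT2-like nuclei, with a log2 ratio of -0.79 (-1.07 to -0.51) in the control and -1.02 (-1.20 to -0.84) in the library labelled CKO. Etv5 stood at -1.37 (-1.83 to -0.94) and -1.14 (-1.34 to -0.94). In the control the AT1-like levels of both genes did not exceed their leukocyte levels. Spred1, in contrast to both, was higher than in AT2-like nuclei, at 0.53 (0.14 to 0.89) and 0.36 (0.20 to 0.51). It stood at 252 CPM (195 to 321) and 582 CPM (528 to 640) in AT1-like nuclei, its highest class in each library among those with at least 50 nuclei. In the control, AT2-like cluster 0 alone had Spred1 at 296 CPM (247 to 351). The control ratio for Spred1 therefore depends on which AT2-like clusters are pooled. Dusp6 was higher in the control alone, at 1.15 (0.40 to 1.82) from 20 UMIs, against -0.24 (-0.81 to 0.30) in the library labelled CKO, and this difference between the libraries was not tested. Spry4 had no UMI in AT1-like nuclei of either library, where the exact upper limits are 14.1 CPM and 5.03 CPM.

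Outside the alveolar epithelium, the inhibitors had other leading classes in the library labelled CKO. Spry4 was highest in endothelial-like nuclei, at 44.5 CPM (23.7 to 76.2) from 13 UMIs, against 3.47 CPM (2.20 to 5.21) in alveolar and 2.05 CPM (0.75 to 4.46) in leukocyte-like nuclei. Dusp6 also led there, at 154 CPM (112 to 206), followed by macrophage- and monocyte-like nuclei at 76.4 CPM (59.2 to 97.1). The other classes, with alveolar nuclei at 53.4 CPM (48.0 to 59.3) among them, ranged from 43.5 CPM in dendritic-like to 58.4 CPM in B-like nuclei. Spry2 stood at 72.6 CPM (43.7 to 113) in fibroblast- and mural-like nuclei, an interval that holds its alveolar level of 75.4 CPM. The leukocyte levels of Dusp6 were 78.7% of the alveolar level in the control and 110% in the library labelled CKO. Its alveolar level thus did not exceed the leukocyte level beyond counting error in either library. How much of that level came from RNA of other cells was not tested.

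Between the libraries, Spred1 had the ratio farthest from 0 among the 10 genes in alveolar nuclei. Spred1, which restrains RAS and RAF activation, had 1081 UMIs in control alveolar nuclei (180 CPM) and 2743 in those of the library labelled CKO (414 CPM), a 2.31-fold higher level with a log2 ratio of 1.20 (1.10 to 1.31). The median ratio over the 9282 genes with at least 100 UMIs was 0.44, so a gene at the middle of the distribution was itself higher in the library labelled CKO. The Spred1 ratio lay at the 89.5th percentile of the 13654 genes with at least 20 UMIs. It was 1.38 (1.25 to 1.5) in AT2-like nuclei, from 175 to 454 CPM, and 0.79 (0.57 to 1.02) in transitional-like nuclei, from 182 to 315 CPM. In cluster 0, the AT2-like cluster with at least 100 nuclei of each library, it was 0.64, from 296 to 460 CPM. Thinned to 1000 UMIs, 14.3% of control alveolar nuclei and 28.8% of those of the library labelled CKO held a Spred1 UMI, and unthinned 584 of 2058 and 1184 of 2309. Leukocyte-like nuclei also differed, with 186 CPM in the control and 267 CPM in the library labelled CKO (0.52, 0.14 to 0.92). The control alveolar level of Spred1 was thus not above its leukocyte level, while that of the library labelled CKO was. The summed markers of macrophages, neutrophils, T and NK cells, B cells, endothelial cells and fibroblasts in alveolar nuclei were also higher in the library labelled CKO. Their part in the Spred1 ratio was not tested. Without alveolar nuclei that held UMIs of at least 2 leukocyte genes (among Ptprc, Cd3e, Csf1r, Cd79a, S100a9 and Mrc1) the ratio was 1.20. That step leaves RNA of other cells in the remaining nuclei and uses no endothelial or fibroblast gene, so it cannot measure that part.

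Spred2, its paralog, was slightly lower in the library labelled CKO over all alveolar nuclei, but not distinguishable from 0 within either class compared. It had 1286 UMIs (214 CPM) in control alveolar nuclei and 1183 (179 CPM) in those of the library labelled CKO, a log2 ratio of -0.26 (-0.37 to -0.14). In AT2-like nuclei the values were 230 and 215 CPM, with a ratio of -0.10 (-0.24 to 0.04) that holds 0. In transitional-like nuclei they were 163 and 138 CPM, with a ratio of -0.25 (-0.50 to 0.01) that also holds 0. In leukocyte-like nuclei Spred2 was at 237 and 125 CPM (-0.92, -1.28 to -0.55). The leukocyte-like nuclei differed in makeup, with 60 of 103 T- and NK-like in the control and 349 of 1332 in the library labelled CKO. Within T- and NK-like nuclei the ratio was -0.59 (-1.22 to 0.08), which holds 0, and that of Spred1 was 0.98 (0.17 to 1.92).

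The start regions of the Spred genes are printed because the paralogs' ratios over all alveolar nuclei differed and each window lies wholly inside an open region. These are the 250 bases before the RefSeq gene start in GRCm38.p6, 5′ to 3′ on the gene's strand, Spred1 at chr2:117120821-117121070 and Spred2 at chr11:19924192-19924441, both on the plus strand. Capitals mark a match to a searched motif.
Spred1: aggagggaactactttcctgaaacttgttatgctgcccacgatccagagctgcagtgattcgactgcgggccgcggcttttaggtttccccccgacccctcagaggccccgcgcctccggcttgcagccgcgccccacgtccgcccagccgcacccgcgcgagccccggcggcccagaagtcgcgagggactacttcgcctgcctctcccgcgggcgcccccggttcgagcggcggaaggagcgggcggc
Spred2: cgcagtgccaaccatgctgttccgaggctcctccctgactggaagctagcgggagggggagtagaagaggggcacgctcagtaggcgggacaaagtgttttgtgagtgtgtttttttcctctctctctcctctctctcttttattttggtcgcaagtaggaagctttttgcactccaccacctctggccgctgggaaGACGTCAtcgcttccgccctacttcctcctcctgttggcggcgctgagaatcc
The motifs searched on both strands were CCGGAAG for ETS factors, TGANTCA for AP-1, TGACGTC for the cyclic AMP response element without its last letter, and TATAAA, none of which overlap in these windows. They occur in 6.91%, 6.75%, 2.78% and 12.4% of the 32851 RefSeq windows of this length. Among the 8 windows of the members in the RefSeq table, which cover 7 of the 10 genes (Etv5 has 2 windows, and Fgfr1, Etv4 and Spry4 have none there), the only match was the TGACGTC of Spred2, on the reverse strand at position -53 from the gene start, printed as GACGTCA. GC content was 70.8% for Spred1 and 56.0% for Spred2, against a median of 52.4% over all windows.

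The 250 bases before the start of Etv5, at chr16:22439571-22439820 on the minus strand, and of Spry1, at chr3:37639697-37639946 on the plus strand, are shown as the starts of the ETS factor and the inhibitor that were lower in transitional-like nuclei. Neither held a searched motif.
Etv5: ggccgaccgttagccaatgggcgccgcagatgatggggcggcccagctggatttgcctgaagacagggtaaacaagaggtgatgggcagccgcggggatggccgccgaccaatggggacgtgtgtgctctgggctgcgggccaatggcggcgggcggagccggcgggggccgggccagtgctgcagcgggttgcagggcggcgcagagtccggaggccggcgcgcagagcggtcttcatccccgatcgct
Spry1: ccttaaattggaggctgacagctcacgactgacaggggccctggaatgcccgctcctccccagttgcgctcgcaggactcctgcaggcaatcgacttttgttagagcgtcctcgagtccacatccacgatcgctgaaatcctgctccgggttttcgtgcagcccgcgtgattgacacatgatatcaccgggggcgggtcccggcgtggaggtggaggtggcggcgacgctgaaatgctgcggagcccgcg
Their GC content was 71.2% and 62.4%.

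The other inhibitors were higher in the library labelled CKO or not distinguishable. Spry1 had 264 and 466 UMIs in alveolar nuclei (43.8 and 70.3 CPM, log2 ratio 0.68, 0.46 to 0.90), and Spry2 had 280 and 500 UMIs (46.5 and 75.4 CPM, 0.70, 0.48 to 0.91). In both epithelial classes the gap had the same direction: they stood in AT2-like nuclei at 0.93 (0.68 to 1.19) and 0.83 (0.58 to 1.09), and in transitional-like nuclei at 0.83 (0.22 to 1.49) and 0.88 (0.36 to 1.43). Both intervals lay above the median over genes of 0.40 in AT2-like nuclei. Dusp6 had 230 and 354 UMIs (38.2 and 53.4 CPM, 0.48, 0.24 to 0.73), an interval that holds the median over genes. Spry4 had 22 and 23 UMIs (3.65 and 3.47 CPM, -0.07, -0.98 to 0.84), too few to order the libraries.

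Among the receptors and ETS factors the ratios were smaller or rested on few UMIs. Fgfr2 had 3898 and 3930 UMIs in alveolar nuclei (647 and 593 CPM, -0.13, -0.19 to -0.06) but 724 and 761 CPM in AT2-like nuclei (0.07, -0.00 to 0.15), so the small difference over all alveolar nuclei did not hold within that class, where median-of-ratios scaling gave -0.33. After weighting control classes to the makeup of the other library it was 0.06. Fgfr1 stood at -0.14 (-0.78 to 0.51). Etv5 had 2246 and 3049 UMIs (373 and 460 CPM, 0.30, 0.22 to 0.38), a direction that turned to -0.14 with median-of-ratios scaling. It stood at 0.63 (0.54 to 0.72) in AT2-like and 0.59 (0.34 to 0.85) in transitional-like nuclei, where it was -0.16 with no filter on nuclei. In AT2-like cluster 0 alone, however, Etv5 was lower in the library labelled CKO, at 700 CPM against 897 CPM in the control (-0.36). The direction for Etv5 in AT2-like nuclei therefore depends on which clusters are pooled. Etv4 had 29 and 68 UMIs (4.82 and 10.3 CPM, 1.09, 0.44 to 1.77), with 1.10 (0.02 to 2.22) in AT2-like and 0.44 (-0.43 to 1.39) in transitional-like nuclei. Once control classes were weighted to the makeup of the other library, the alveolar ratio of Etv4 was 0.60, under 2-fold, and that of Spred1 1.16.

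Counted over the 10 genes, 2 were at least 2-fold higher in alveolar nuclei of the library labelled CKO (Etv4 and Spred1) and 0 at least 2-fold lower. Over all 13654 genes with at least 20 UMIs, 17.4% were 2-fold higher and 3.08% 2-fold lower, so the members' count is near what the genes at large show. Measured from the median over genes, 0 members were past 2-fold in either direction, against 6.09% and 6.64% of all genes. At 1.5-fold, 4 members were higher (with Spry1 and Spry2) and 0 lower, against 41.8% and 6.34% of all genes. The members' median log2 ratio was 0.39, against 0.47 over all 13654 genes, and 5 of 10 lay above the median of 0.44. In AT2-like nuclei the same 2 genes were past 2-fold (16.6% of 11738 genes higher, 4.75% lower), and in transitional-like nuclei 0 of the 9 with enough UMIs (11.3% of 11186 genes higher, 2.01% lower).

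**Figure D3:**
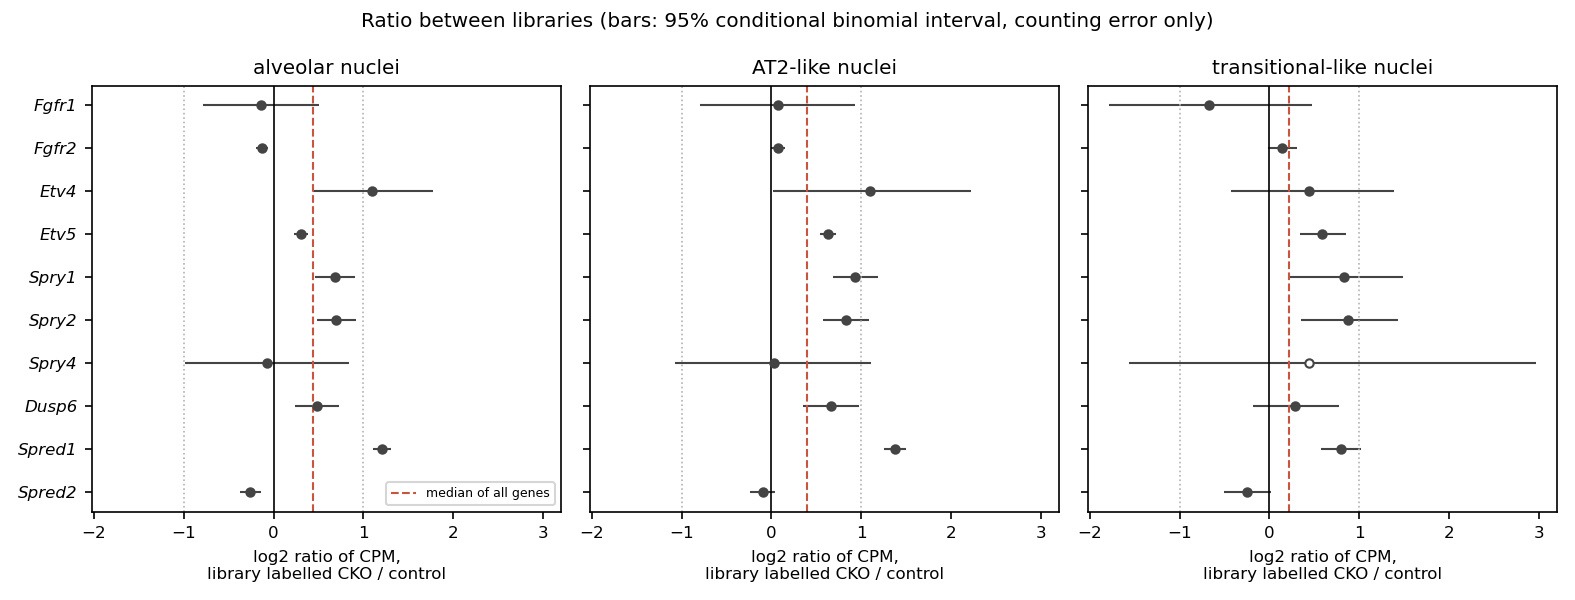
Log2 ratio of the CPM in the library labelled CKO over the control for each gene in alveolar, AT2-like and transitional-like nuclei, with exact 95% intervals as bars and the median over genes marked per class. The open circle has under 20 UMIs. Spred1 lies to the right of the median over genes in all 3 panels, from 0.79 to 1.38, and Spred2 lies to the left of 0 in each. The Spred2 interval holds 0 in AT2-like and in transitional-like nuclei.

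Other genes of the pathway were counted in lists, in alveolar nuclei and by the same 2-fold rule. Of 8 FGF ligands, 4 had at least 20 UMIs and 0 were past 2-fold. Of 12 other receptors and co-receptors 10 were counted, and 1 was higher, the heparan sulfate proteoglycan Gpc1, at 1.06 from 17 and 39 UMIs. All 21 adaptors and ERK cascade genes were counted, and 2 were higher: the GTPase Hras, from 12.5 to 33.0 CPM (1.41, 1.02 to 1.81), and the adaptor Frs3, with under 50 UMIs and named after its value was seen. Of 14 other feedback inhibitors 12 were counted, and 2 were higher: the ERK phosphatase Dusp7, from 11.1 to 32.0 CPM (1.52, 1.12 to 1.94), and Flrt2, from 5.98 to 13.3 CPM (1.15, 0.58 to 1.75). None of the 13 other ETS factors was past 2-fold, but measured from the median over genes 2 were lower (Ehf at -1.03 and Spdef at -1.06), and in AT2-like nuclei 1 was higher and 1 lower. Of 10 ERK-responsive genes 9 were counted. The cyclin Ccnd1 (100 to 232 CPM, 1.21, 1.07 to 1.34) and the urokinase receptor Plaur (9.97 to 23.5 CPM, 1.24, 0.80 to 1.69), also a transitional marker here, were higher. Egr1, an immediate-early transcription factor, was lower, at 529 CPM in the control and 70.5 CPM in the library labelled CKO (-2.91, -3.05 to -2.77). Measured from the median over genes, 0 of these 9 were higher and 4 lower: Egr1 at -3.35, Fosl1 at -1.42, Ier3 at -1.27 and Phlda1 at -1.17. Fosl1, like Plaur, is also a transitional marker here. In AT2-like nuclei 1 was higher and 4 lower, with a list median of -0.67 against 0.43 over all genes counted. On the median-centred scale the ligands had 0 higher and 1 lower, the receptors 0 and 1, the cascade 0 and 0, and the other inhibitors 1 and 0. The alveolar list medians were -0.17 for ligands, 0.36 for receptors, 0.38 for the cascade, 0.40 for inhibitors, 0.18 for ETS factors and 0.20 for ERK-responsive genes, all under the 0.47 of all genes counted.

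Fgf2, Fgf7 and Fgf10 had their highest levels in fibroblast- and mural-like nuclei. In those of the library labelled CKO, Fgf2 stood at 447 CPM (370 to 536), Fgf7 at 176 CPM (129 to 234), Fgf10 at 168 CPM (122 to 226) and Fgf18 at 15.3 CPM from 4 UMIs. In alveolar nuclei Fgf2 was at 2.16 CPM in the control and 2.26 CPM in the library labelled CKO, Fgf7 at 2.99 and 2.26 CPM, and Fgf18 at 2.99 and 1.66 CPM. Fgf10 was at 0.66 and 1.81 CPM, from 4 and 12 UMIs, Fgf9 had 1 and 5 UMIs, Fgf20 had 2 and 4, and Fgf22 had 1 and 0. Fgf1 had the most UMIs of the ligands in alveolar nuclei, 332 and 451, at 55.1 CPM (49.4 to 61.4) and 68.1 CPM (61.9 to 74.6), with 95.5 and 110 CPM in AT1-like nuclei. In the library labelled CKO it was as high in endothelial-like nuclei, at 120 CPM, and in neutrophil-like nuclei, at 118 CPM.

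The genes whose level most resembled Fgfr2 over 9 units of class and library (those with at least 100 nuclei) were Tmem110 (Pearson r of log2(CPM + 1) 0.976), Sugct (0.963) and Pik3c2g (0.956). Among those most like Etv5 were Exosc7 (0.992) and Tle2 (0.976). The units share libraries and free RNA, so the coefficients are descriptions with no p-value.

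Open chromatin was read in regions where the peaks called separately in each library overlapped. Within 10 kb of the 10 gene starts lay 51 regions, 40 of them found in both libraries, 4 in the control and 7 in the library labelled CKO. Counts are scaled to CPM of all counts in shared regions, and the median log2 ratio over all shared regions was 0.24 in alveolar nuclei. Every start had a region within 1000 bases that was open in both libraries. Near the starts of Fgfr2 and Spry4, a region found in a single library also lay within 1000 bases. The start region of Etv5 held the most counts, 715 in the control and 917 in the library labelled CKO (chr16:22439293-22440221, 77.7 and 84.5 CPM, 0.12, -0.02 to 0.26). The region over the Etv4 start held 262 and 266 (chr11:101784856-101785683, 28.5 and 24.5 CPM, -0.22, -0.47 to 0.04).

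At the starts of the Spred genes, the Spred1 region was higher in the library labelled CKO and the Spred2 ratio was not distinguishable from 0. The Spred1 start region (chr2:117120309-117121273) held 351 counts in the control and 587 in the library labelled CKO, or 38.1 and 54.1 CPM, a log2 ratio of 0.50 (0.31 to 0.70). In transitional-like nuclei it held 39 and 203 counts (1.15, 0.65 to 1.68). In AT2-like nuclei the ratio was 0.38 (0.15 to 0.62), an interval that holds the median of 0.21 over shared regions in that class. A second region inside Spred1, centred 2006 bases past the start, held 124 and 127 counts (-0.20, -0.57 to 0.17), with -0.77 (-1.43 to -0.10) in transitional-like nuclei from 35 and 48 counts. The Spred2 start region (chr11:19923770-19924687) held 385 and 453 counts, a ratio of -0.00 (-0.20 to 0.20), an interval under the median of 0.24 over shared regions. The region with the most counts near Spred2, centred at -4082, held 485 and 461 (-0.31, -0.50 to -0.12), and one inside the gene at 8766 bases held 217 and 141 (-0.86, -1.18 to -0.55). In transitional-like nuclei the Spred2 start held 48 and 148 counts (0.39, -0.08 to 0.90) and the region at -4082 held 44 and 136 (0.40, -0.10 to 0.92), both intervals holding 0.

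The other start regions stood between -0.14 and 0.43. Fgfr2 had 136 and 216 counts (chr7:130265871-130266772, 0.43, 0.11 to 0.75), and Spry4 had 265 and 387 (0.31, 0.08 to 0.54). The Spry4 ratio leaves out an adjoining region centred at -803, called in the control alone, with 142 counts (15.4 CPM). The Fgfr2 ratio leaves out a region centred at -646, called in the library labelled CKO alone, with 38 counts. Counts of the other library in these 2 regions are not known, so the direction at the Spry4 start depends on how peaks were called. Spry1 had 228 and 311 (chr3:37639478-37640379, 0.21, -0.04 to 0.46), Fgfr1 83 and 108 (chr8:25518462-25519214, 0.14, -0.28 to 0.57), Dusp6 431 and 528 (chr10:99262771-99263643, 0.05, -0.13 to 0.24) and Spry2 439 and 471 (chr14:105896870-105897773, -0.14, -0.33 to 0.05). Past 2-fold were 2 of the 40 shared regions, both higher in the library labelled CKO and named after their values were seen, and 0 were lower. Over 92577 shared regions with at least 20 counts, 15% were 2-fold higher and 2.1% 2-fold lower. One, upstream of Spry4 at -3272, held 25 and 90 counts (1.61, 0.96 to 2.31), and the other, downstream of Dusp6 (chr10:99268385-99269316), held 32 and 91 (1.27, 0.67 to 1.90).

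**Figure D4:**
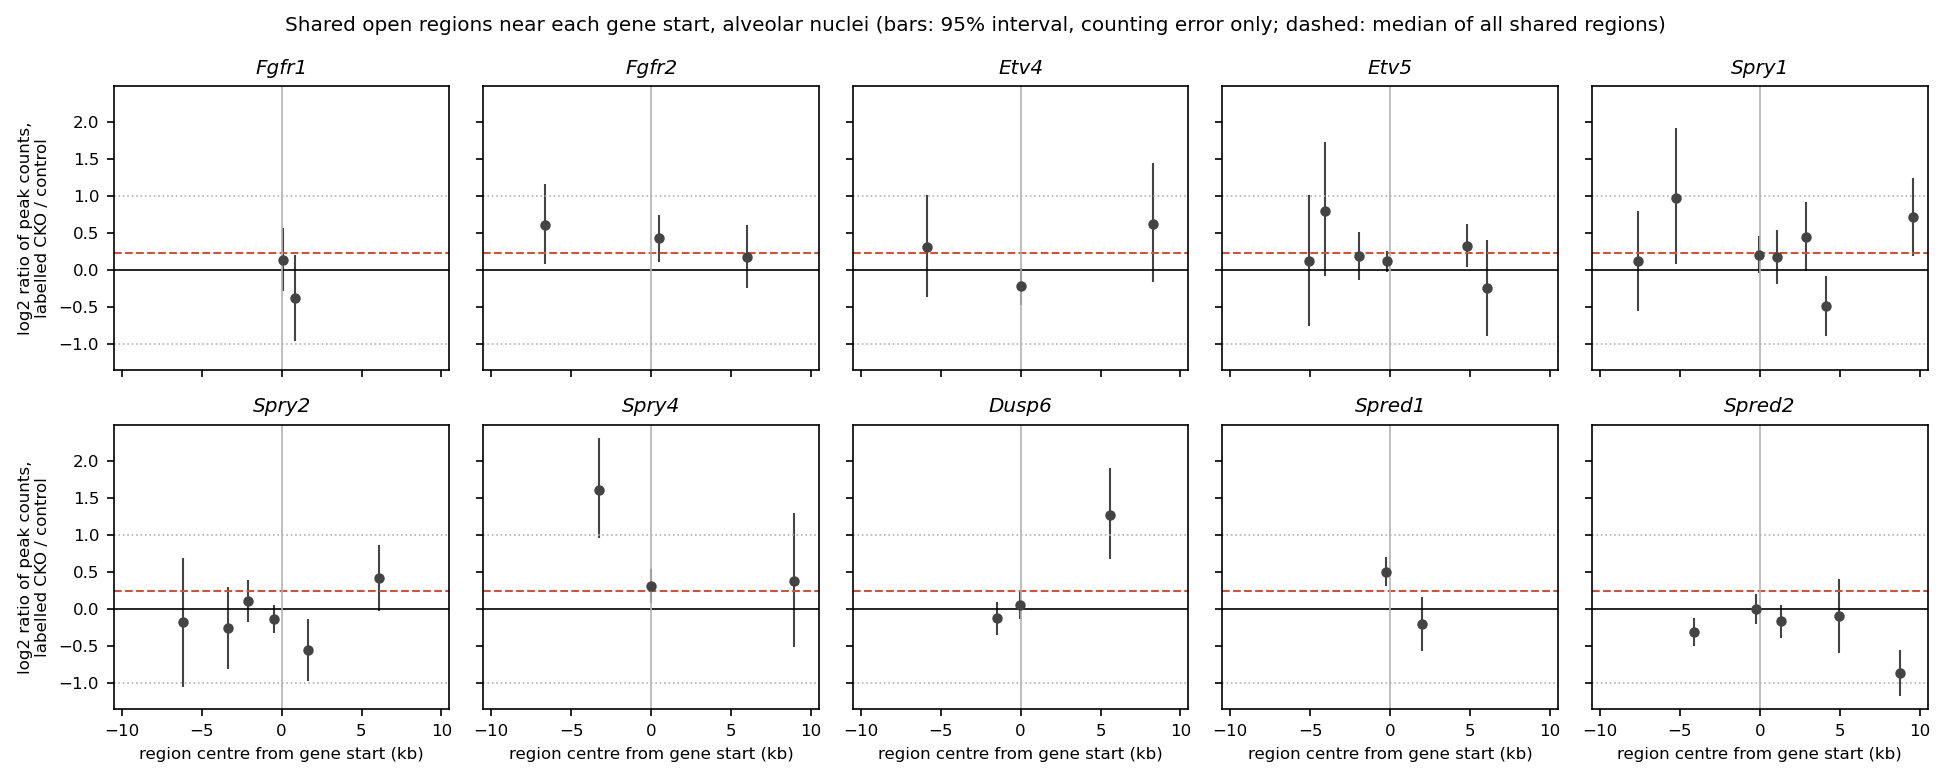
Log2 ratio of scaled counts in the library labelled CKO over the control for the shared regions within 10 kb of each gene start in alveolar nuclei, by distance of the region's centre from the start (grey line) in kb, with exact 95% intervals as bars and the median of all shared regions dashed. The region upstream of Spry4 and the one downstream of Dusp6 lie above 2-fold, at 1.61 and 1.27, and the others lie within 1 log2 unit of 0.

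Transitional-like and AT2-like nuclei were also compared in chromatin within each library. The starts of Etv4 and Etv5 did not follow their RNA: transitional-like over AT2-like, the Etv4 start stood at 0.16 in the control and 0.14 in the library labelled CKO, and the Etv5 start at 0.23 and -0.19. Differences were larger at distal regions, here named after their values were seen. A region inside Etv4 (chr11:101776580-101777510) in the library labelled CKO held 31 counts in transitional-like and 5 in AT2-like nuclei (7.96 and 0.80 CPM, 3.32, 1.95 to 5.04). It held 9 in each class of the control, which is 5.49 and 1.2 CPM but under the minimum of 20 counts. A region upstream of Etv5 (chr16:22441094-22441972) was lower in transitional-like nuclei, with 9.77 against 16.8 CPM in the control (-0.78, -1.63 to -0.03) and 10.3 against 23.2 CPM in the library labelled CKO (-1.18, -1.72 to -0.66). Upstream of Spry1 (chr3:37631876-37632839) the unscaled counts were 2 against 33 in the control and 2 against 42 in the library labelled CKO. The scaled log2 ratio was -1.85 (-4.95 to 0.12) in the control, an interval that holds 0. In the library labelled CKO it was -3.7 (-6.79 to -1.76). Downstream of Spry1 (chr3:37649096-37649962) transitional-like nuclei were higher, at 11.0 against 4.00 CPM in the control. In the library labelled CKO the levels there were 12.8 against 5.25 CPM. Past 2-fold were 4 regions higher and 5 lower of 38 in the control, and 3 higher and 5 lower of 43 in the library labelled CKO. Over all regions counted, 13.4% were higher and 21.3% lower in the control, and 12.1% and 13.6% in the library labelled CKO, so the members' counts are near the background.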

How the data were processed

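The values are raw counts as deposited by the authors: UMIs per gene and transposition counts per peak, made with Cell Ranger ARC 2.0.1 per the file headers. Seurat 4.1.0, Signac 1.6.0, GRCm38 and GRCm39 appear in the submitters' processing notes without a role. The files' gene starts match GRCm38, the build of all coordinates. How barcodes were called is not given in the sources used here.

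Filters required 500 to 25000 UMIs, 300 genes, between 1000 and 100000 peak counts, and under 20% mitochondrial UMIs. Scrublet (expected rate 0.08) called 3 and 2 nuclei, so it did not work and doublets remain. The libraries were clustered jointly in scanpy 1.11.5 (1999 variable genes without the members, 30 principal components, 15 neighbours, Leiden resolution 0.6). Clusters were named by the highest mean log2 fold over 16 marker lists (score at least 0.3, 3 markers detected). The scoring was revised after a first version left control AT2 clusters unnamed. Library totals are CPM over nuclear-encoded UMIs, and a member was counted in a ratio with at least 20 UMIs over both groups. Intervals are exact (conditional binomial, Poisson, Clopper-Pearson), at 95%. The calculation was tested on simulated data.

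Members and lists were chosen with earlier results of these data known. Named were all 10 members and Ptgir, the list genes with at least 50 UMIs past 2-fold (at most 2 in each direction), the ligands with a UMI, the 3 genes most like Fgfr2 and Etv5 among those with at least 200 UMIs (1 of them is not reported here), and for chromatin the start region and the region with the most counts. Promoter windows are from RefSeq. Python 3.11.15, numpy 2.4.6, scipy 1.17.1 and pandas 2.3.3 were used.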

Additional observations from a re-analysis of the deposited data

How the results depend on the processing

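The ratios rest on 1 library per genotype, and variation between mice cannot be told apart from genotype. No paired analysis was possible because each genotype has 1 library, and no replicate could be left out. Of the alternatives for single ratios of RNA, 336 values were within counting error of those reported, 59 moved and 4 reversed. Of the levels 256 stayed and 24 moved, and of the region ratios 157 stayed and 3 moved. Allowing the members among the variable genes gave 30 of the unchanged RNA ratios and 40 of the unchanged levels. That setting could not change them, since 0 members were among the variable genes. Reversed were Etv5 in alveolar nuclei with median-of-ratios scaling (-0.14), Etv5 in transitional-like nuclei with no filter on nuclei (-0.16), Etv5 in AT2-like cluster 0 alone (-0.36) and Fgfr2 in alveolar nuclei after weighting control classes to the makeup of the other library (0.063). The number of members 2-fold higher in alveolar nuclei, 2 as reported, was 0 with median-of-ratios scaling, 1 without Gm42418, AY036118 and Malat1, 1 with that class makeup and 1 without AT2-like cluster 3. It was 4 with each nucleus weighted equally, 4 after thinning to 1000 UMIs and 4 at a 1.5-fold threshold. Of all genes, 6.09% were higher with median-of-ratios scaling and 41.8% at the 1.5-fold threshold. For the other settings the share of all genes is not given here, so these counts are no result about the members. For regions, also 2 as reported, the number higher was 0 within 2 kb of the starts, 15 within 50 kb, with 1 lower, and 4 with the class makeup. No share is given beside these region counts, so they too are no result about the members. The settings with cluster 3 left out and cluster 0 alone, and gene starts taken from the files, were chosen after seeing the data. Leaving out alveolar clusters of low depth was not run, since no cluster met the limit. Etv4, Spry4 and Fgfr1 are limited by depth, with under 70 UMIs in the alveolar nuclei of either library.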
